A study of Arabidopsis thaliana with 6 samples.

Results

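Cysteine-rich receptor-like kinases (CRKs) form one of the large receptor kinase families of Arabidopsis. The members were the genes whose description in the deposited table names a cysteine-rich receptor-like protein kinase, which gave 39 of 27372 genes. The samples were whole *fer-4* seedlings, which carry an insertion in *FERONIA* (*FER*), the receptor kinase that binds RALF peptides, and whole wild-type Col-0 seedlings, with 3 RNA-seq libraries of each genotype. Both genotypes spent 7 days on MS-agar under long days and were collected at zeitgeber time 3 h (ZT3), and the light intensity of 154 is given in mmol in the labels and in μmol in the study's methods, per square metre and second. The study compared the genotypes under this light, which it calls ML, and *fer-4* is a single mutant line, so its effect cannot be told apart from that of anything else particular to the line.

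A typical CRK has an outer part with DUF26 cysteine-rich repeats, one membrane-spanning helix and a kinase inside the cell. Many CRK genes are known to respond to pathogens, salicylic acid, ozone and other sources of reactive oxygen species (ROS), and several CRKs act in immune ROS production, cell death or abscisic acid (ABA) responses. WRKY transcription factors, whose binding site is the W-box, are known regulators of some of them. FER itself is a member of a different receptor kinase family.

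Levels are read as FPKM, fragments scaled by transcript length and by the mapped total of the library, so they can be set side by side between genes of different length. The column headers name no unit, and FPKM was inferred from the processing notes, which name Cufflinks, and from the values. Read counts were not among the values used, which leaves sequencing depth unknown and allows no counting interval. *FER* had 0.0905, 0.0270 and 0.0438 FPKM in *fer-4* seedlings, against 56.5, 62.6 and 64.6 FPKM in Col-0 seedlings, which fits the labels of all 6 libraries. Of the 39 CRK genes, 35 lie on chromosome 4, and 17 of these form one array of 71.2 kb (chr4:12117541-12188763, TAIR10, from *CRK5* to *CRK23*).

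The 250 bases before the annotated gene start are shown for 4 members that were all higher in *fer-4*, because they span the range of W-box content in the family. *CRK11* held the most matches of all members, *CRK5* and AT4G11521 held several, and *CRK13*, the member with the largest difference, held none. The stretches were read from TAIR10.1 with the gene starts of RefSeq and run 5′ to 3′ on each gene's own strand. They lie at chr4:12143859-12144108 (*CRK11*, minus strand), chr4:12120221-12120470 (*CRK5*, minus strand), chr4:6985267-6985516 (AT4G11521, plus strand) and chr4:12151639-12151888 (*CRK13*, minus strand). For all 4 genes, these RefSeq starts lie upstream of the start given by the deposited coordinates. Capitals mark the W-box core TTGAC, or GTCAA where the core is on the other strand.
CRK11: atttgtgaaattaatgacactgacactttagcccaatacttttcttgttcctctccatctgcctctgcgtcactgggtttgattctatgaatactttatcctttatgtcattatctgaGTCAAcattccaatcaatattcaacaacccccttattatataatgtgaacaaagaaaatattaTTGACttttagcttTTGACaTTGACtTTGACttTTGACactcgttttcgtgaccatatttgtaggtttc
CRK5: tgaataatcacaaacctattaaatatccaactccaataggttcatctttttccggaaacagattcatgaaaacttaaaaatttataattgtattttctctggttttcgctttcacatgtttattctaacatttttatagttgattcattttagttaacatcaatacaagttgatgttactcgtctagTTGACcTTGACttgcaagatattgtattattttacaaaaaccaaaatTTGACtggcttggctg
AT4G11521: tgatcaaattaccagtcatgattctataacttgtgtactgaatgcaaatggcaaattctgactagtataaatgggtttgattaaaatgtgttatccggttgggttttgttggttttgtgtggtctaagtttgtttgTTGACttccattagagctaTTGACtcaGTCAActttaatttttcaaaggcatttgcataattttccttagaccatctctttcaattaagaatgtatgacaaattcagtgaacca
CRK13: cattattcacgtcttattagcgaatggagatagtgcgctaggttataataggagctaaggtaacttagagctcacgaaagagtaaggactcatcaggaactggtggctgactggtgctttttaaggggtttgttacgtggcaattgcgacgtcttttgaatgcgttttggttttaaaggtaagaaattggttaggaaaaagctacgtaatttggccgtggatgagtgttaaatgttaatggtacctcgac

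The genes that rose in *fer-4* outnumbered those that fell. Of the 39 members, 25 averaged 0.5 FPKM or more across the 6 libraries and were tested with limma on log2(FPKM + 0.1). At an adjusted p under 0.05, *fer-4* was higher for 12 of these and lower for 3. That is 48% higher and 12% lower, beside 18.0% higher and 16.0% lower among all 19839 genes tested. The study's thresholds for a differentially expressed gene (DEG) are an adjusted p no larger than 0.01 with a fold change of 2 or more. With these, 6 of the 25 members were higher and 1 was lower, beside 6.36% and 2.53% of all genes. The median log2 fold change was 0.48 over the 25 members and -0.0097 over all genes tested. In whole seedlings, more cells that express a gene and more of its RNA per cell cannot be told apart. The filter matters for these counts, since 5 of the 12 (*CRK13*, *CRK45*, *CRK5*, *CRK36* and *CRK14*) had a mean under 0.5 FPKM in Col-0 and passed it only through *fer-4*. All of these but *CRK36* are among the 6 higher DEGs, which leaves *CRK9* and *CRK11* as higher DEGs expressed at that level in Col-0. Among the 20 members with at least 0.5 FPKM in Col-0, 7 were higher and 3 were lower, with a median of 0.34, beside 17.0% higher, 16.2% lower and a median of -0.018 among the 19508 genes at that level. The libraries did not overlap for 15 members with *fer-4* above Col-0 (26.1% of all genes) and for 3 with *fer-4* below Col-0 (25.1%). The count of lower members fell to 1 when *fer-4* replicate 3 or any 1 of the 3 Col-0 libraries was left out.

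**Figure D1:**
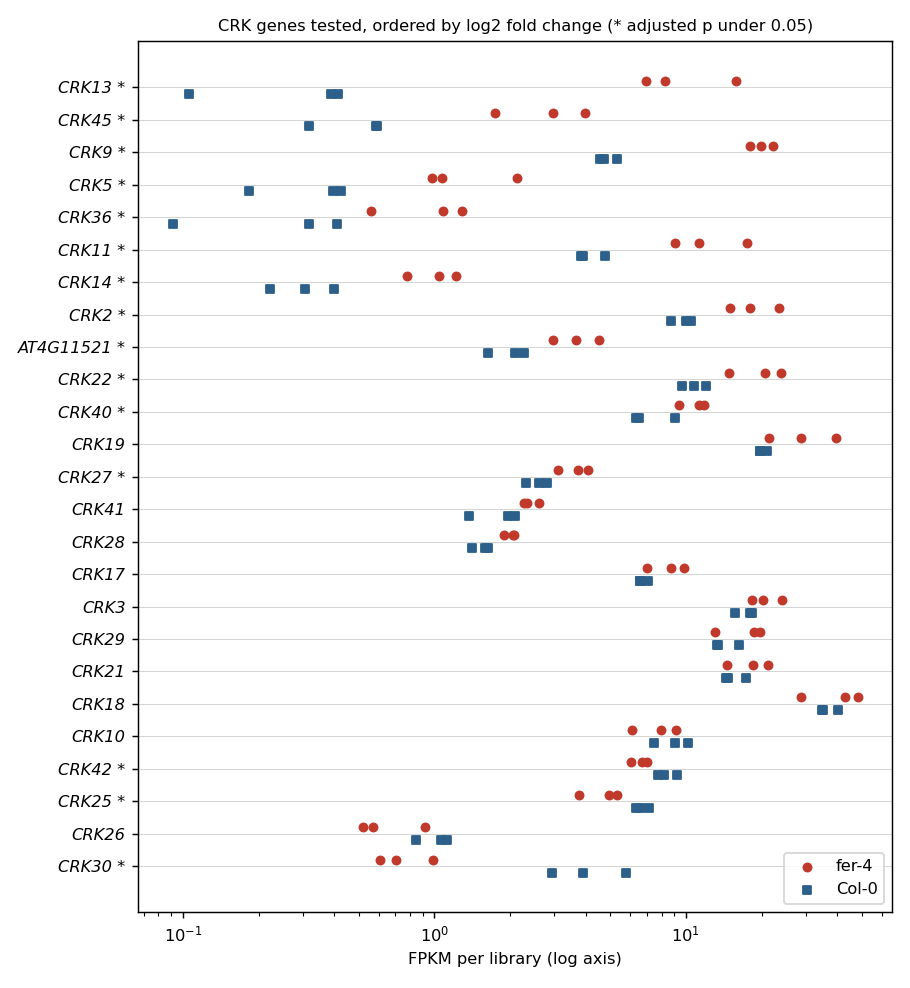
FPKM of the 25 CRK genes tested, on a log axis, with 1 point per library (red circles *fer-4*, blue squares Col-0) and rows ordered by log2 fold change; an asterisk marks an adjusted p under 0.05 (limma). *CRK13* at the top has 6.94 to 15.8 FPKM in *fer-4* and 0.106 to 0.414 FPKM in Col-0, and *CRK30* at the bottom has 0.608 to 0.988 FPKM in *fer-4* and 2.93 to 5.79 FPKM in Col-0.

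The largest difference was in *CRK13* (AT4G23210, chr4:12148714-12151479, minus strand), whose overexpression is known to raise salicylic acid-dependent defense and cell death. It had 6.94, 8.25 and 15.8 FPKM in *fer-4* seedlings, against 0.390, 0.414 and 0.106 FPKM in Col-0 seedlings. The gene was close to silent in every Col-0 library and among the better expressed members in every *fer-4* library, where it ranked 11 by mean level, against 25 in Col-0. Its log2 fold change was 4.71 (SE 0.42, adjusted p = 9.62e-05, limma), and the ratio of the group means was 34.1. Of the 50-base stretches of its coding sequence, 18.5% also occur in another member, mostly in *CRK22* of the same array, so reads of the pair may be split between them by the counting.

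*CRK5*, *CRK11* and *CRK36* are members with a known place in defense. *CRK5* (AT4G23130, chr4:12117541-12120134, minus strand), a target of the repressors WRKY18, WRKY40 and WRKY60 that can trigger cell death when overexpressed, had 0.980, 1.07 and 2.13 FPKM in *fer-4* and 0.183, 0.395 and 0.423 FPKM in Col-0. It rose by a log2 fold change of 1.75 (SE 0.38, adjusted p = 0.00842, limma), with no overlap between the genotypes. *CRK11* (AT4G23190, chr4:12141032-12143833, minus strand), known as a pathogen- and salicylic acid-induced gene, had 9.07, 11.3 and 17.5 FPKM in *fer-4* and 3.90, 4.78 and 3.84 FPKM in Col-0. Even its lowest *fer-4* library was above its highest Col-0 library, and its log2 fold change was 1.53 (SE 0.23, adjusted p = 0.00143, limma). *CRK36*, whose product works with the immune kinase BIK1 and in ABA responses, rose by 1.58 on the log2 scale (SE 0.45, adjusted p = 0.0292, limma) at low levels of 0.559 to 1.29 FPKM in *fer-4* and 0.0910 to 0.409 FPKM in Col-0. Its adjusted p was 0.076 without *fer-4* replicate 2, 0.0933 without *fer-4* replicate 3, 0.0539 without Col-0 replicate 2 and 0.0742 without Col-0 replicate 3.

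*CRK45* (AT4G11890, chr4:7147865-7149921, plus strand), also named *ARCK1*, encodes a cytosolic kinase that is known to bind CRK36 and act in ABA and osmotic stress responses. It had 3.98, 2.97 and 1.74 FPKM in *fer-4* and 0.317, 0.584 and 0.590 FPKM in Col-0. All *fer-4* libraries were above all Col-0 libraries, but *fer-4* replicate 1 was the highest and replicate 3 the lowest, whereas replicate 3 was the highest for *CRK13*, *CRK5* and *CRK11*. Its log2 fold change was 2.29 (SE 0.34, adjusted p = 0.00141, limma), and the group means differed 5.83-fold.

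Among the members past both DEG thresholds, *CRK9* had the smallest error (AT4G23170, symbol *EP1*, chr4:12135093-12136157, plus strand). It had 19.9, 18.0 and 22.3 FPKM in *fer-4* and 4.71, 5.33 and 4.54 FPKM in Col-0, a log2 fold change of 2.02 (SE 0.12, adjusted p = 9.11e-06, limma). By mean level it ranked 4 among all members in *fer-4* and 13 in Col-0. Its coding sequence has 798 bases in RefSeq, the same as AT4G11521, where *CRK13* has 2022. Both genes are members by their description, and whether sequences this short encode a kinase was not examined. AT4G11521 also rose, by 0.85 on the log2 scale (SE 0.20, adjusted p = 0.0116, limma), with 2.97, 3.66 and 4.51 FPKM in *fer-4* and 1.63, 2.09 and 2.27 FPKM in Col-0. The adjusted p of AT4G11521 was 0.0512 without Col-0 replicate 1.

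*CRK14* (AT4G23220, chr4:12153956-12157091, minus strand) was the last of the 6 members that rose past both DEG thresholds. It had 0.777, 1.04 and 1.22 FPKM in *fer-4* and 0.223, 0.397 and 0.305 FPKM in Col-0, with a log2 fold change of 1.45 (SE 0.29, adjusted p = 0.00665, limma). For members this low the size of the fold change depends on the constant added before the logarithm: with 1 in place of 0.1, the log2 fold change was 3.05 for *CRK13*, 1.34 for *CRK45*, 0.82 for *CRK5*, 0.62 for *CRK36* and 0.62 for *CRK14*, and all 5 stayed under an adjusted p of 0.05.

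**Figure D2:**
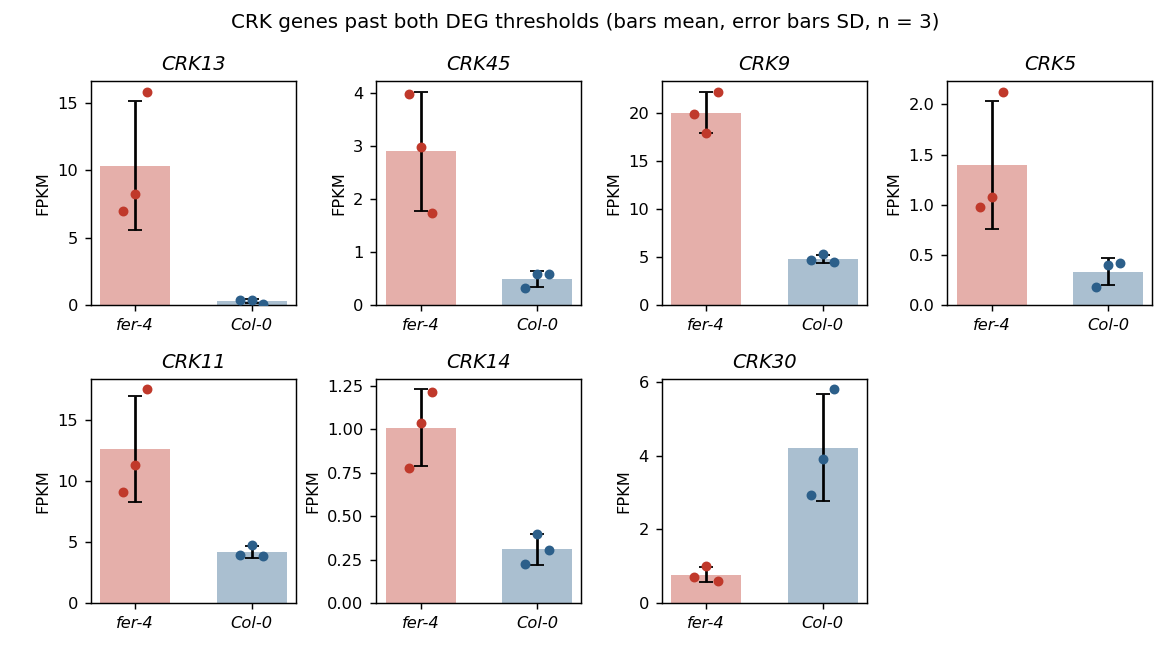
FPKM (linear axis from 0, a separate scale for each gene) of the 7 CRK genes past both DEG thresholds, with *fer-4* left and Col-0 right; bars are means, error bars SD (n = 3 libraries) and points single libraries. The genotypes do not overlap in any panel, and *CRK30* alone has the higher bar in Col-0.

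Smaller rises were seen in members expressed at moderate levels. *CRK2*, whose product is known to phosphorylate the NADPH oxidase RBOHD in immune ROS production, had 15.0, 18.0 and 23.4 FPKM in *fer-4* and 8.72, 10.0 and 10.5 FPKM in Col-0, with a log2 fold change of 0.92 (SE 0.16, adjusted p = 0.00355, limma). *CRK22*, the array member that shares sequence with *CRK13*, had 14.8, 20.6 and 23.9 FPKM in *fer-4* and 9.66, 10.8 and 12.0 FPKM in Col-0. Its log2 fold change was 0.84 (SE 0.17, adjusted p = 0.00737, limma), and both genes showed no overlap between genotypes. *CRK40* and *CRK27* rose by 0.58 and 0.48 on the log2 scale (adjusted p = 0.0255 and 0.0425, limma). These last calls were fragile: the adjusted p of *CRK40* was 0.0666 and 0.0801 without *fer-4* replicate 2 and 3, and 0.0999 and 0.0957 without Col-0 replicate 1 and 2. That of *CRK27* was 0.107 and 0.0999 without *fer-4* replicate 2 and 3, and 0.113, 0.149 and 0.0729 without Col-0 replicate 1, 2 and 3.

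Of the 3 members that fell, *CRK30* (AT4G11460, chr4:6964468-6967093, plus strand) stood apart. It had 0.703, 0.988 and 0.608 FPKM in *fer-4* and 2.93, 3.91 and 5.79 FPKM in Col-0, a log2 fold change of -2.29 (SE 0.28, adjusted p = 0.000525, limma). Of its neighbours in a cluster of 5 members, *CRK31*, *CRK32* and *CRK33* were at most 0.209 FPKM in any library, too low to show a fall. The remaining neighbour, AT4G11521, rose. *CRK25* had 4.93, 5.30 and 3.74 FPKM in *fer-4* and 6.57, 7.13 and 6.33 FPKM in Col-0, a log2 fold change of -0.52 (SE 0.15, adjusted p = 0.0271, limma). *CRK42* was lower by the smallest margin, with 6.07, 6.70 and 7.01 FPKM in *fer-4*, 7.75, 8.17 and 9.18 FPKM in Col-0 and a log2 fold change of -0.34 (SE 0.11, adjusted p = 0.0486, limma).

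Both of these small falls carry limits. The adjusted p of *CRK25* was 0.0568 without *fer-4* replicate 3 and 0.0834, 0.102 and 0.0623 without Col-0 replicate 1, 2 and 3, and that of *CRK42* lay between 0.06 and 0.177 without any 1 of the 6 libraries. Each also overlaps a gene on the opposite strand and has the same interval as that gene in the deposited table, *CRK25* with the kinesin gene *ATK5* over 492 bases and *CRK42* with AT5G40382 over 130 bases (RefSeq). *ATK5* had 2.88, 4.96 and 3.65 FPKM in *fer-4* and 5.48, 5.66 and 4.83 FPKM in Col-0. AT5G40382 had 0.561, 0 and 0 FPKM in *fer-4* and 1.17, 1.96 and 0.776 FPKM in Col-0. By the labels the library kit keeps strand, but neither they nor the study's methods state whether the counting used strand. A part of these reads may therefore belong to the other gene of the pair.

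The 5 most abundant members in Col-0 did not pass the test. By mean level in *fer-4*, *CRK9*, *CRK22* and *CRK2*, which were higher, ranked 4, 5 and 6. *CRK18* was the highest member in all 6 libraries, with 28.6, 43.0 and 48.4 FPKM in *fer-4* and 34.6, 35.1 and 40.4 FPKM in Col-0, so the *fer-4* values enclosed the Col-0 values. Its log2 fold change was 0.093 (95% interval -0.33 to 0.51, adjusted p = 0.727, limma), 0.32 without *fer-4* replicate 1 (adjusted p = 0.0406) and -0.061 without *fer-4* replicate 3. *CRK19*, known to cause cell death when overexpressed, had 21.5, 28.6 and 39.4 FPKM in *fer-4* and 19.6, 19.7 and 20.9 FPKM in Col-0. Its libraries did not overlap, but the spread in *fer-4* left a log2 fold change of 0.52 with an SE of 0.19 (adjusted p = 0.0683, limma). Without *fer-4* replicate 1 its adjusted p was 0.00698.

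*CRK3*, *CRK21* and *CRK29* completed the 5 most abundant members in Col-0. *CRK3* had 18.2, 20.3 and 24.1 FPKM in *fer-4* and 15.7, 18.0 and 18.3 FPKM in Col-0 (log2 fold change 0.26, SE 0.12, adjusted p = 0.138, limma). *CRK21* had 14.6, 18.5 and 21.1 FPKM in *fer-4* and 14.4, 14.6 and 17.3 FPKM in Col-0 (log2 fold change 0.21, SE 0.15, adjusted p = 0.298, limma). *CRK29*, whose closest relative *CRK28* encodes a partner of the co-receptor BAK1 in flagellin responses, had 13.0, 18.6 and 19.7 FPKM in *fer-4* and 13.3, 13.4 and 16.2 FPKM in Col-0 (log2 fold change 0.24, SE 0.17, adjusted p = 0.306, limma). In each of the 3, the libraries of the genotypes overlapped. Without *fer-4* replicate 1, the adjusted p was 0.0424 for *CRK3*, 0.0421 for *CRK21* and 0.0216 for *CRK29*.

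The other members that did not pass were *CRK17*, *CRK28*, *CRK41*, *CRK10* and *CRK26*, with log2 fold changes of 0.32, 0.36, 0.41, -0.21 and -0.56. *CRK10* (AT4G23180, symbol *RLK4*), like *CRK11* known as a salicylic acid-induced gene, lies next to *CRK11* and had 6.11, 7.95 and 9.17 FPKM in *fer-4* and 7.48, 9.03 and 10.2 FPKM in Col-0. These neighbouring genes overlap in RefSeq by 32 bases at their ends on opposite strands, while their deposited intervals do not overlap. Of the pair, *CRK11* was higher in every *fer-4* library and *CRK10* overlapped between genotypes. *CRK17* was higher at an adjusted p of 0.00964 without *fer-4* replicate 1, and *CRK28* at 0.0292 without the intensity trend (limma). *CRK26* was lower at 0.0491 without *fer-4* replicate 2.

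In Col-0 the order of mean levels ran from *CRK18* (36.7 ± 3.21 FPKM, SD, n = 3) through *CRK19* (20.1 ± 0.702), *CRK3* (17.4 ± 1.41), *CRK21* (15.5 ± 1.64) and *CRK29* (14.3 ± 1.64) down to *CRK13* (0.303 ± 0.171) and *CRK36* (0.273 ± 0.164) at the low end of the tested members. Between neighbours in this order, the Col-0 libraries were apart in 8 of 24 pairs and overlapped in the rest. *CRK18* was apart from *CRK19*, and *CRK19* from *CRK3*, whereas *CRK3*, *CRK21* and *CRK29* overlapped each with the next. These 5 most abundant members in Col-0 made up 44.6% to 48.4% of the summed CRK level in *fer-4* and 54.4% to 56.5% in Col-0.

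Summed over all 39 members, the level was 215, 267 and 319 FPKM in *fer-4* and 173, 186 and 203 FPKM in Col-0, a ratio of the means of 1.42. The *fer-4* sums had the wider spread (267 ± 52.1 against 187 ± 15.4 FPKM, SD, n = 3 each). *fer-4* replicate 3 was the highest *fer-4* library for 18 of the 25 members tested (72%), beside 30.6% of all genes tested. Col-0 replicate 3 was likewise the highest Col-0 library for 17 of the 25 (68%), beside 39.9% of all genes. The part of this library difference in the results was not tested beyond leaving each library out. Without *fer-4* replicate 3, 9 members were higher, and without *fer-4* replicate 1, which had the lowest *fer-4* sum, 18 were.

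The remaining 14 members had means under 0.5 FPKM and were left out of the test. *CRK33* and AT4G28670 were listed at 0 in all 6 libraries, and the highest value of any of the 14 was 0.751 FPKM, for *CRK15* in *fer-4*. In 5 of them (*CRK20*, *CRK39*, *CRK32*, *CRK31* and *CRK7*) every *fer-4* library was above every Col-0 library, and in none was the reverse seen, beside 4.39% above and 4.71% below among all 7533 genes under that level. Those 7533 include every gene at 0 in all 6 libraries, which cannot separate, since 23126 of the 27372 genes had any signal. The shares are therefore lower than among low genes with signal. *CRK7* separated only by 0.0224 FPKM in *fer-4* against 0.0221 FPKM in Col-0. *CRK20*, another member that causes cell death when overexpressed, was the clearest: it had 0.309, 0.242 and 0.264 FPKM in *fer-4* and 0.0209, 0.0192 and 0.0220 FPKM in Col-0. When limma was run with no filter, *CRK20* was higher with an adjusted p of 0.000949, *CRK39* with 0.0308 and *CRK32* with 0.0487. Their closest relatives in coding sequence are *CRK19* (90.6% identical to *CRK20*), *CRK40* (88.1% to *CRK39*) and *CRK31* (88.8% to *CRK32*), and the first 2 of these are far more abundant, so these low levels are uncertain where reads are shared. *CRK4*, *CRK6*, *CRK15*, *CRK16*, *CRK23*, *CRK37* and *CRK38* overlapped between genotypes.

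The large array on chromosome 4 held 17 members, of which 11 were tested, 6 were higher and 0 were lower at an adjusted p under 0.05 (limma); 1 tested array member, *CRK10*, had a negative log2 fold change (unadjusted p = 0.266). All genes tested gave 18.0% higher and 16.0% lower. *CRK5*, *CRK13* and *CRK14* passed the filter only through *fer-4*, and among the 8 array members with at least 0.5 FPKM in Col-0, 3 were higher. By position, in the stretch from *CRK5* to *CRK14*, the tested genes *CRK5*, *CRK9*, *CRK11*, *CRK13* and *CRK14* rose by 1.45 to 4.71 on the log2 scale and only *CRK10* did not pass. In the stretch from *CRK17* to *CRK22*, *CRK17*, *CRK18*, *CRK19* and *CRK21* had log2 fold changes of 0.093 to 0.52 without passing, and *CRK22* rose by 0.84. No rule set in advance divided the array into these stretches, so the division only describes these values and was not tested. Of the array members, *CRK18*, *CRK19* and *CRK21* were the most abundant in Col-0, and all 3 lie in this second stretch. The array lies on both strands, with 2 of 4 tested genes higher on the plus strand and 4 of 7 on the minus strand. Its summed level was 131, 168 and 212 FPKM in *fer-4* and 102, 108 and 117 FPKM in Col-0.

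**Figure D3:**
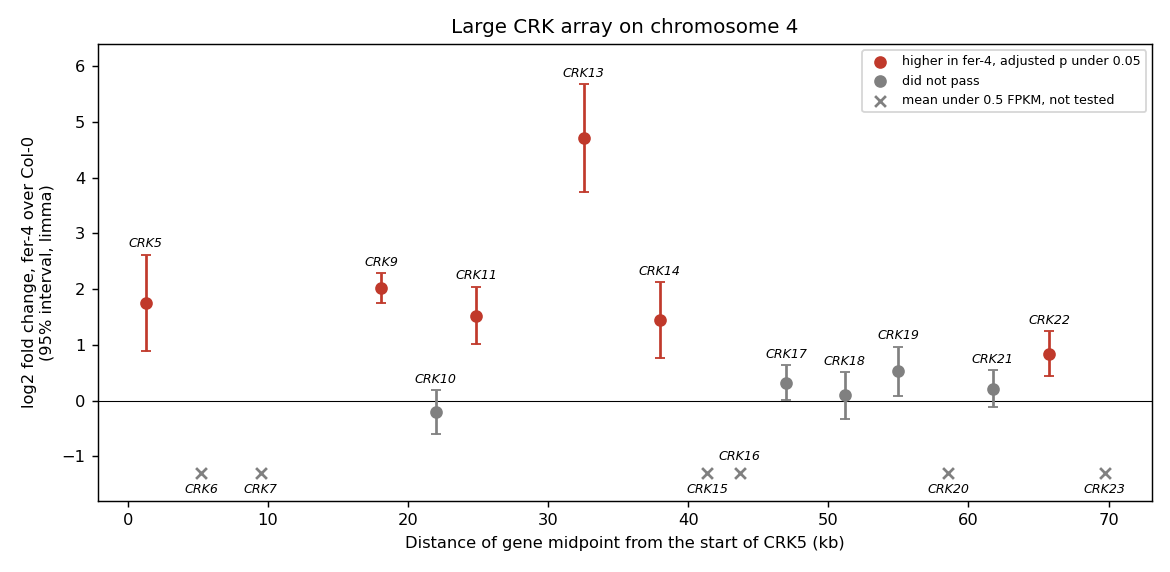
Log2 fold change (*fer-4* over Col-0, limma, with 95% interval) of the CRK genes of the large chromosome 4 array against the distance of each gene's midpoint from the start of *CRK5* (kb); red points were higher at an adjusted p under 0.05, grey points did not pass and crosses are genes under 0.5 FPKM, drawn at a fixed height with no value. *CRK13* at 4.71 stands over its neighbours, and the genes from *CRK17* to *CRK21* lie between 0.093 and 0.52.

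Some members share sequence, and where the counting could split their reads the values are uncertain. Of 563 pairs of members whose coding sequences align over at least 80% of the longer one, the median identity was 72.2%, and 4 pairs were at least 85% identical, *CRK19* with *CRK20*, *CRK31* with *CRK32*, *CRK39* with *CRK40* and *CRK28* with *CRK29* (87.8%). In all, 22 members shared at least one 50-base stretch with another member. When members at least 85% identical were summed before the fit, 12 features were higher and 3 lower. This sum could change the counts little: among the genes of these 4 pairs only *CRK40* had been called, and *CRK39* was at most 0.169 FPKM. *CRK13* with *CRK22* and *CRK16* with *CRK17* were not summed, so a split of their reads was not tested. *CRK16* and *CRK17* overlap by 1190 bases on the same strand in RefSeq, so stretches they share there can be the same bases of the genome. Their deposited intervals do not overlap (chr4:12160502-12161954 and chr4:12162004-12167026), and how far their levels are uncertain was not tested. *CRK8*, *CRK12*, *CRK24* and *CRK34* are named as CRKs but described otherwise in the table and were not members. *CRK12* had 2.85, 4.27 and 3.94 FPKM in *fer-4* and 0.430, 0.297 and 0.191 FPKM in Col-0, and *CRK24* was at most 0.198 FPKM in any library. *CRK34*, at most 3.13 FPKM in *fer-4* and 3.28 FPKM in Col-0, and *CRK8*, at most 0.104 FPKM, overlapped between genotypes.

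Promoter windows, which the selection of members did not use, were searched for motifs. In a window from 250 bases before to 50 bases after the gene start, 25 of 39 members (64.1%) held a W-box (TTGACC or TTGACT, either strand), beside 32.4% of 27443 windows of the genome. The shorter core TTGAC, which every W-box contains, was in 30 members (76.9%), beside 50.5% of all windows. The G-box CACGTG, a site of other factor families, was in 1 member (2.56%, *CRK41*), beside 7.68% of all windows. W-boxes did not follow the calls: they were in 7 of the 12 members that were higher, 2 of the 3 that were lower, 4 of the 10 that did not pass and 12 of the 14 that were too low to test. *CRK11* held 7 cores, of which the 4 full W-boxes lie at positions -132, -69, -49 and -43 from the gene start, and in the sequence above those from position -69 on crowd towards the end. *CRK5* held 3 W-boxes at -63, -57 and -16. *CRK13*, *CRK45*, *CRK2*, *CRK22* and *CRK40* were higher in *fer-4* with no core in the window. For all of these but *CRK45*, the RefSeq gene start used here lies upstream of the start in the deposited coordinates. The windows of *CRK40* and *CRK22* end at chr4:2288665 and chr4:12181674, before their deposited intervals begin (chr4:2289959 and chr4:12181932). Windows at the deposited starts were not searched, so a lack of cores holds for the RefSeq gene models only. A match is a string of letters in a window and not a measured binding site, tandem copies can share such strings by descent, and the shares were not tested.

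**Figure D4:**
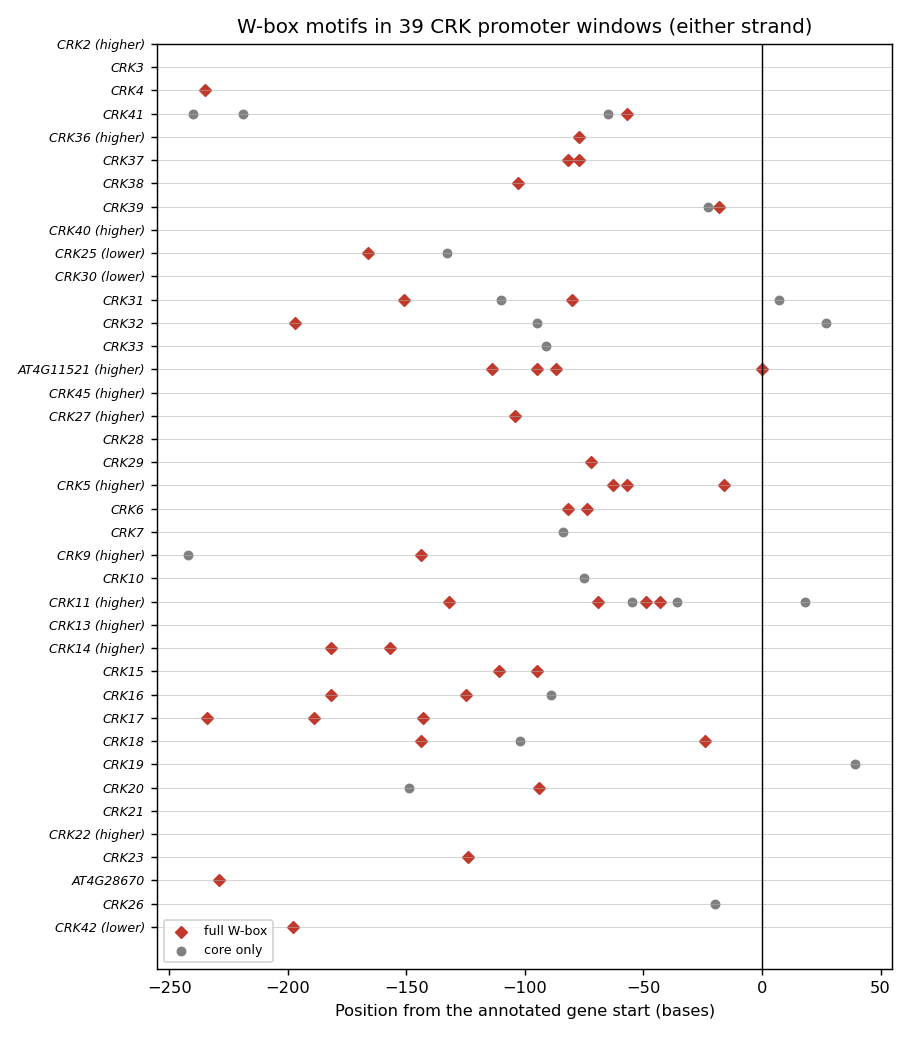
Positions of W-boxes (red diamonds, TTGACC or TTGACT) and of cores outside a full W-box (grey circles, TTGAC) on either strand in the window of each of the 39 CRK genes, in bases from the annotated gene start, with genes in chromosome order and those past the test marked. Gene starts are those of RefSeq, which can differ from the deposited coordinates. *CRK11* has the densest row, with 7 cores, and *CRK13*, *CRK45*, *CRK2*, *CRK22* and *CRK40* are the higher members with none.

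Known partners and regulators of CRKs, 9 genes in all, were read beside the family. Of these 6 were higher, 1 was lower and 2 did not pass, beside 18.0% higher and 16.0% lower among all genes tested. *WRKY18*, *WRKY40* and *WRKY60*, whose products bind the *CRK5* promoter, rose by 3.19, 2.81 and 1.32 on the log2 scale (adjusted p at most 5.1e-05, limma). *WRKY18* had 34.4, 34.3 and 48.2 FPKM in *fer-4* and 3.87, 3.70 and 4.91 FPKM in Col-0. *RBOHD*, the NADPH oxidase that CRK2 phosphorylates, had 33.6, 45.4 and 55.6 FPKM in *fer-4* and 14.9, 15.1 and 17.0 FPKM in Col-0, a rise of 1.48 (SE 0.17, adjusted p = 0.000393, limma). *BIK1* rose by 1.05 and the co-receptor gene *BAK1* by 0.35. The flagellin receptor gene *FLS2* had 1.86, 1.98 and 3.44 FPKM in *fer-4* and 1.29, 1.39 and 2.00 FPKM in Col-0 and did not pass (adjusted p = 0.138, limma). *PLDALPHA1* and *CALS1*, which encode a phospholipase D and a callose synthase linked to CRK2 in salt responses, had log2 fold changes of 0.0037 (not passed) and -0.83 (lower, adjusted p = 0.0229, limma). *CALS1* no longer passed when any 1 of the Col-0 libraries was left out, which leaves 0 lower genes in the list.

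Salicylic acid genes, 10 in all and 9 of them tested, gave 6 higher and 0 lower (limma), and all 9 log2 fold changes were positive, beside 18.0% higher and 16.0% lower among all genes tested. *PR2* and *SARD1* passed the filter only through *fer-4*, and 4 of the 7 genes with at least 0.5 FPKM in Col-0 were higher. The pathogenesis-related gene *PR2* had 19.4, 21.3 and 15.1 FPKM in *fer-4* and 0.0657, 0.240 and 0.0342 FPKM in Col-0, a log2 fold change of 6.56 (SE 0.34, limma). *SARD1* and *CBP60G*, regulators of salicylic acid synthesis, rose by 1.98 and 1.38, and *PR5* by 1.04. *ICS1*, which encodes the synthesis enzyme itself, had 6.93, 6.12 and 7.05 FPKM in *fer-4* and 5.25, 5.52 and 5.41 FPKM in Col-0 and did not pass (adjusted p = 0.058, limma). *NPR1* and *WRKY70* overlapped between genotypes, and *PR1* was too low to test.

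Other families were set beside the CRKs by the words in their gene descriptions. The cysteine-rich repeat secretory proteins have the DUF26 repeats of CRKs without a kinase and include the plasmodesmata-located proteins (PDLPs): of 42 genes, 14 were tested, 8 were higher and 1 was lower, with a median log2 fold change of 0.96. Among the 12 with a Col-0 mean of at least 0.5 FPKM, 6 were higher and 1 was lower (median 0.49). AT5G41280, AT5G41290, AT3G22060 and AT5G41300 rose most, by 3.57, 2.57, 1.78 and 1.59, where AT5G41280 and AT5G41290 passed the filter only through *fer-4*. *PDLP4* fell by 0.95, a call lost without Col-0 replicate 1, which leaves 0 lower. AT3G22060 reached 114, 91.1 and 236 FPKM in *fer-4* and 32.0, 40.2 and 46.5 FPKM in Col-0, the highest level of any DUF26 gene tested. L-type lectin receptor kinases gave 13 higher and 3 lower of 30 tested (median 0.33), and 10 higher and 3 lower of the 27 with at least 0.5 FPKM in Col-0 (median 0.054). AT1G70130, which passed the filter only through *fer-4*, rose by 4.81, and AT5G59260 had a log2 fold change of -1.20. Wall-associated kinases gave 7 higher and 2 lower of 13 tested (median 0.52), and 6 higher and 2 lower of the 12 with at least 0.5 FPKM in Col-0 (median 0.33). *ATWAKL10*, which passed the filter only through *fer-4*, rose by 4.85, and *WAKL4* had a log2 fold change of -1.10. Without Col-0 replicate 1 the wall-associated kinases gave 4 higher and 0 lower, and without Col-0 replicate 3 they gave 0 lower. The CRKs at that level gave 7 higher and 3 lower of 20 (median 0.34), and all genes at that level 17.0% higher and 16.2% lower. No difference between families was tested.

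**Figure D5:**
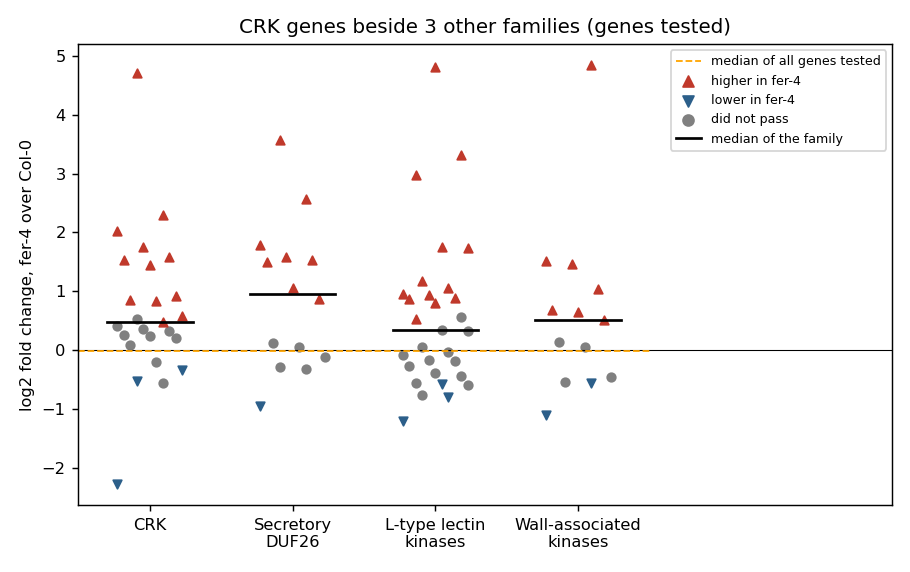
Log2 fold change (*fer-4* over Col-0) of each gene tested in the CRK family, the secretory DUF26 proteins, the L-type lectin receptor kinases and the wall-associated kinases; triangles up were higher and triangles down lower at an adjusted p under 0.05 (limma), circles did not pass, black lines are family medians and the dashed line is the median of all genes tested. The medians are 0.48, 0.96, 0.33 and 0.52, beside the dashed line at -0.0097. They include genes that passed the filter only through *fer-4*, without which they are 0.34, 0.49, 0.054 and 0.33.

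Lists of leaf and root genes were also read in these whole seedlings, where many but not all of the genes differed between genotypes. Of 10 leaf genes of photosynthesis, 0 were higher and 6 were lower (limma), with a negative log2 fold change in all 10, and their summed level was 41575 to 50008 FPKM in *fer-4* and 64432 to 69648 FPKM in Col-0. Of 12 root genes, 2 were higher and 8 were lower, and their summed level was 332 to 475 FPKM in *fer-4* and 279 to 303 FPKM in Col-0. This sum is carried by the iron transporter gene *IRT1*, 1 of the 2 that rose, and over the other 11 genes it was 112 to 143 FPKM in *fer-4* and 196 to 207 FPKM in Col-0. The nitrate transporter gene *NRT2.1*, the aquaporin gene *TIP2.3* and the root hair expansin genes *EXPA18* and *EXPA7* had the most negative log2 fold changes, at -2.48, -1.61, -1.36 and -1.34. *PHT1.4* rose by 0.88 (adjusted p = 0.00143, limma), and *SCR* and *SHR* did not pass, with log2 fold changes of -0.079 and 0.14. Less of an organ and less expression within it cannot be told apart here. No marker on either list was at 0 in any library. The part of these shifts in the CRK differences was not tested.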

How the data were processed

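RNA of 3 *fer-4* and 3 Col-0 libraries was sequenced, and the authors deposited values per gene, read here as FPKM since Cufflinks is named and the headers give no unit. Per the labels, the submitters' processing notes name STAR 2.5, Cufflinks 2.2.1 and TAIR10. A table column of fold changes and q-values from the authors' own comparison was not used, nor were their group means. FPKM keeps no read counts, so depth is unknown. The members and gene lists were chosen with earlier results of these data known. The text names every member, up to 4 rising and 4 falling genes of other lists, and all CRK partners. The 4 CRKs outside the description rule were named after their values were seen. Genes averaging 0.5 FPKM or more across the 6 libraries were tested with limma 3.58.1 (R 4.3.3, intensity trend) on log2(FPKM + 0.1), *fer-4* minus Col-0, two-sided, with Benjamini-Hochberg adjustment over 19839 genes, which was tested on simulated data first. A fold change on this scale understates the change of low genes. The study calls the libraries biological replicates. The p-values weigh the genotype difference against the spread between these samples, where limma draws each gene's variance towards that of genes of similar level. Of 26703 genes in both the deposited data and RefSeq (TAIR10.1), 7465 had the same end, and in 3883 of these the deposited start was 1 less. Deposited starts were raised by 1 to count from 1. The gene models of the sources thus differ for most genes, and the intervals of members and arrays are the deposited ones. Identity and motifs came from RefSeq gene models. Alternatives were other pseudocounts, filters and scalings, no trend, a replicate block and leaving out each library.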

Additional observations from a re-analysis of the deposited data

How the results depend on the processing

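Of the 15 CRK genes called, 9 kept their call under all alternatives run for them. The count of higher members was 14 with no filter, 9 with a minimum mean of 1 FPKM, 12 with quantile normalization, and 9 to 18 when 1 library was left out. Lower members numbered 1 to 3, higher DEGs 4 to 8 and the median log2 fold change 0.43 to 0.59 when 1 library was left out, and the median was 0.37 with a pseudocount of 1. *CRK18* turned to -0.061 without *fer-4* replicate 3 and was 0.32 without *fer-4* replicate 1. For the secretory proteins, the lower count was 0 at a minimum mean of 1 FPKM, 2 after quantile normalization and 0 to 1 when 1 library was left out. For the lectin kinases it was 5 after quantile normalization and 6 without the intensity trend. For the wall-associated kinases it was 1 at a minimum mean of 1 FPKM, 4 after quantile normalization and 0 to 3 when 1 library was left out, which also gave 4 to 7 higher. For the CRK partners it was 0 to 1 when 1 library was left out. Over all genes, quantile normalization gave 3064 higher and 4203 lower, against 3569 and 3170 without it. The causes were not tested.

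Deviations of same-numbered libraries from their group means correlated at -0.044, 0.043 and -0.066. These values gave no sign of pairing by replicate number, but cannot show whether such libraries were grown or prepared together. With the replicate block, 12 CRK genes were higher and 2 lower: *CRK27* and *CRK42* lost their calls (adjusted p = 0.0719 and 0.0592, limma) and *CRK19* gained one (0.0323). Summing members by protein identity was not run, and coding sequence was used in its place, a choice made after seeing the data. Depth is unknown, so what it limits cannot be stated.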
